A study of Mus musculus with 8 samples.

Results

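The 40 genes described here code for products of the acinar cells of the pancreas: 22 digestive enzymes and zymogens (the lipase cofactor Clps counted among them), 8 other secreted or granule proteins, 6 proteins of the endoplasmic reticulum, metabolism or membranes, and 4 transcription factors. They were picked by gene symbol, with earlier results of these data known, and all 40 had an entry in the authors' count table of 24537 genes. The low-count filter left 37 of them for testing, and Cela3a, Prss1 and Aqp8 were not tested. Acinar cells make the enzymes that digest food, store them as inactive zymogens in granules and release them into the ducts. Their identity is held by a small set of transcription factors, chief among them PTF1A, which works in the PTF1 complex with RBPJL, together with NR5A2 and BHLHA15 (MIST1). After injury of the mouse pancreas, acinar cells can turn towards a duct-like state in which enzyme transcripts are lost.

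RNA was sequenced from EpCAM+ cells that had been purified by FACS from dissociated pancreatic tumours of 8 FVB/NJ mice aged 44 to 49 days, with 1 library per tumour. Among the alleles that all mice carried were Trp53f/f, a Rosa26LSL-Luc reporter and Pdx1-Cre, a Cre driven by a promoter that is active in the progenitors of acinar, ductal and endocrine cells alike. The 4 tumours labelled KO (KO 1 to KO 4) were Lifr f/f. The 4 tumours labelled WT were mixed in genotype, since WT 1 and WT 2 were Lifr f/+ and WT 3 and WT 4 were Lifr +/+. Lifr codes for the receptor subunit of leukaemia inhibitory factor, and the comparison asks how expression differed in sorted tumour cells when it was floxed on both alleles. The labels do not say which exon was floxed.

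Counts in genes summed to between 14938875 and 22698340 per tumour, and all levels below are CPM, counts scaled to a library of 1000000 after TMM scaling. Lifr itself was higher and not lower in the tumours labelled KO, at 157, 205, 149.7 and 219.6 CPM, against 126, 93.7, 71.8 and 99.5 CPM in those labelled WT. For this reason KO and WT below stand for labels, and every direction between the groups rests on them. Epcam, the antigen of the sort, averaged 421 ± 57.7 CPM in the tumours labelled KO and 774 ± 96.4 CPM in those labelled WT (SD, n = 4 each). Summed over 16 macrophage markers, the level was 22750 to 29614 CPM in KO and 8599 to 15669 CPM in WT, without overlap. Summed over 16 ductal markers it was 4496 to 6699 CPM in KO and 7951 to 10355 CPM in WT, again without overlap. The part of these markers in the acinar values was not tested. In sorted bulk samples, fewer acinar cells and less acinar RNA per cell cannot be told apart.

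Acinar transcripts formed a steep gradient over the tumours that ran through both groups. The 22 enzymes together stood at 54429, 11086, 35638 and 2370.3 CPM in KO 1 to KO 4, against 1265, 11924, 519.6 and 1173 CPM in WT 1 to WT 4. KO 1 and KO 3 were the highest tumours, KO 2 and WT 2 lay close together in the middle, and KO 4 lay nearer to WT 1 and WT 4 than to any other tumour of its own group. The groups overlapped, since WT 2 lay above KO 2 and KO 4. As a share of all counts, the enzymes took 4.85%, 1.05%, 3.44% and 0.227% in KO 1 to KO 4, against 0.133%, 1.32%, 0.0546% and 0.123% in WT 1 to WT 4. The 95% Wilson interval was 4.84% to 4.85% at the highest share (KO 1) and 0.0536% to 0.0556% at the lowest (WT 3). These intervals cover counting error only, and the differences between tumours were far larger than that error.

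The fold between the highest and the lowest tumour was 105 over all 8, 23.0 within KO and 22.9 within WT. The 2 groups therefore each held nearly the same range, which was moved up in KO. Across the 37 tested genes, the median SD of log2(CPM + 0.5) over the 8 tumours was 2.49, against 0.267 over all 14728 genes tested. The biological coefficient of variation estimated by edgeR, which measures the spread within groups, had a median of 1.05 for these genes, against 0.175 for all genes.

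**Figure D1:**
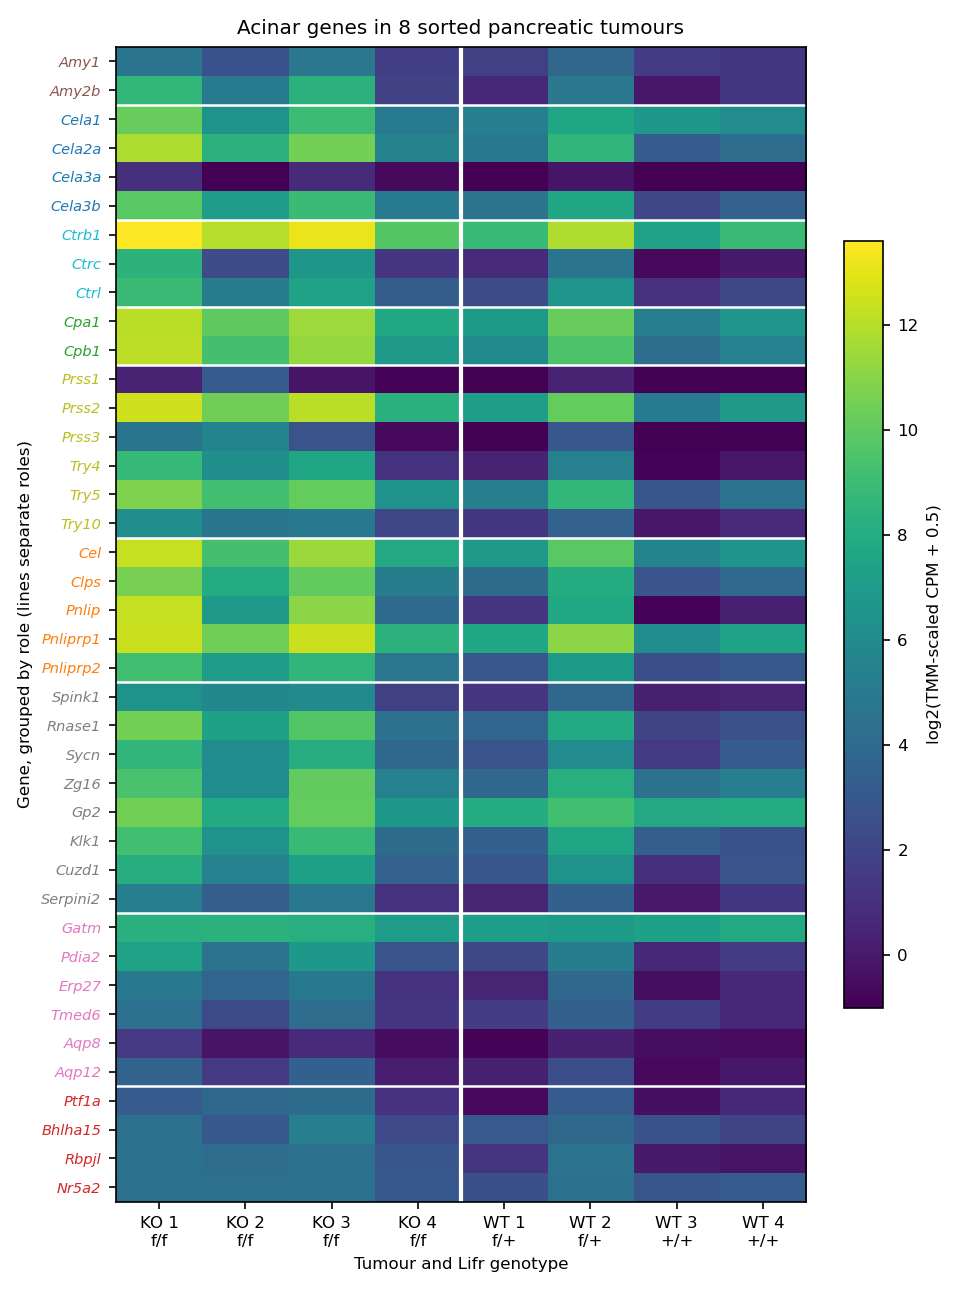
Levels of all 40 acinar genes, as log2(TMM-scaled CPM + 0.5), by gene (rows, grouped by role and coloured by it) and tumour (columns, KO 1 to KO 4 on the left and WT 1 to WT 4 on the right). All rows share a colour scale, so brightness between rows follows the level of each gene. Within nearly every row KO 1, KO 3, KO 2 and WT 2 are brighter than KO 4, WT 1, WT 3 and WT 4, while Gatm is nearly even.

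The tumours kept nearly the same order from gene to gene. KO 1, KO 2, KO 3 and WT 2 were the 4 highest tumours for 33 of the 37 tested genes, a pattern seen in 4.18% of all genes tested. The exceptions were Cela1, Gp2, Gatm and Bhlha15. KO 4 was the lowest of the KO tumours for 37 of 37 genes, against 31.4% of all genes. WT 2 was the highest of the WT tumours for 36 of 37, with Gatm the exception, against 26.3% of all genes. KO 1 was the highest of all 8 for 28 of 37 genes (9.72% of all genes), and WT 3 the lowest for 25 of 37 (14.98% of all genes). The complete order KO 1, KO 3, WT 2, KO 2, KO 4, WT 1, WT 4, WT 3 was found in 12 of the 37 genes and in 16 of all 14728 genes. These counts describe genes of the same 8 libraries, and genes are not independent replicates.

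Because these genes moved together, the stretch before their transcription starts was read for 4 short motifs on both strands, in the 250 bases upstream of each start (RefSeq, build GRCm38.p6). CACCTG is an E box of the type bound by PTF1A with its partners, and TTTCCCA is the box of RBPJ and RBPJL in the PTF1 complex. CATATG is an E box bound by BHLHA15, and AAGGTCA is a half-site bound by nuclear receptors such as NR5A2. No motif is contained in another, and CATATG reads the same on both strands. Of the 40 genes 33 had an entry, with 35 windows in all. CACCTG was present in 22 of the 35 windows (62.9%), among them 13 of 19 enzyme windows, against 17.2% of 32851 promoter windows in the table. TTTCCCA was in 7 of 35 (20.0%), 6 of them of enzymes, against 6.82% of all windows. Both were present in the windows of 4 genes, all of them enzymes (Prss2, Cel, Cela2a and Cela3a), which was 11.4% of the windows against 1.17% of all. AAGGTCA was in 4 of 35 (11.4%) against 4.08%, and CATATG in 0 of 35 against 3.46%. A match is a description of the letters and not of binding, and a window without a match says only that these letters are not in it.

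The windows of 5 genes are shown as examples. They are 3 abundant enzymes with both boxes, the regulator Rbpjl with the E box alone, and Pnlip, the steepest enzyme of the gradient, with neither. Other abundant enzymes differed, since Ctrb1 and Cpa1 had TTTCCCA alone and Pnliprp1 had neither. Capitals mark CACCTG and TTTCCCA on either strand (CAGGTG and TGGGAAA when read on the other), and the last base printed is the base before the start. Prss2 is at chr6:41521526-41521775, plus strand, Cel at chr2:28563404-28563653, minus strand, Cela2a at chr4:141826006-141826255, minus strand, Rbpjl at chr2:164402944-164403193, plus strand, and Pnlip at chr19:58670115-58670364, plus strand.
Prss2: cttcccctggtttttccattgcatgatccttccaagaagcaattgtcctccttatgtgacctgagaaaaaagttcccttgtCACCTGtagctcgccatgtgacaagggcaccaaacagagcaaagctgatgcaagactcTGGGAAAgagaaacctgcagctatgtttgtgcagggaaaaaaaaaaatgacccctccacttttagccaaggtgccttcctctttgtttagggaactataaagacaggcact
Cel: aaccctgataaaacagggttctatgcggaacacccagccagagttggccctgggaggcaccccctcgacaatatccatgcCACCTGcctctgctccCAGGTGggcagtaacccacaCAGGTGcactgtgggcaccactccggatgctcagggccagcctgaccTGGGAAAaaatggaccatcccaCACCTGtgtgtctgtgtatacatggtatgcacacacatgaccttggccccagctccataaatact
Cela2a: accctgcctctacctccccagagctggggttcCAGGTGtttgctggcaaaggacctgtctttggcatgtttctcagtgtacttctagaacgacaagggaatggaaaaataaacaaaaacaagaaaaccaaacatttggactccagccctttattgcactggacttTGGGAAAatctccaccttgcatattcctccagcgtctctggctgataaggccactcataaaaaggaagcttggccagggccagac
Rbpjl: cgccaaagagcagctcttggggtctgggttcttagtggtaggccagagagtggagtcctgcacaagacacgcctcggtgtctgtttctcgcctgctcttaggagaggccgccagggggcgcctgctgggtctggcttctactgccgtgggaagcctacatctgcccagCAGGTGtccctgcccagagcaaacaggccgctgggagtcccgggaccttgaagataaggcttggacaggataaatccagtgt
Pnlip: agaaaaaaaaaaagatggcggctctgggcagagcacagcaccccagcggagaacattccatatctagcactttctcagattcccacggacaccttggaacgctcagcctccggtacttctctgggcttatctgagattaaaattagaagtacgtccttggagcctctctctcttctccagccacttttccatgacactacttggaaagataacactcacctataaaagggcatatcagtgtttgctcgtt

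In the Prss2 window the E box lies 169 to 164 bases and the other box 111 to 105 bases before the start. In that of Cela2a they lie 218 to 213 and 85 to 79 bases before it. The Cel window holds 4 E boxes, and its TTTCCCA match lies 87 to 81 bases before the start. Within KO, Prss2 spanned 19.4-fold and Cela2a, which has the same boxes, 75.8-fold. Pnlip, with neither box in this window, spanned 302-fold, but Pnliprp1, also with neither, spanned 16.5-fold.

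Among the proteases, Ctrb1, which codes for chymotrypsinogen B (mm10 chr8:111686510-111691010, minus strand), was the most abundant acinar transcript per length, with a mean of 2422 FPKM over the 8 tumours. It was at 12474, 4109.7, 9379.6 and 881 CPM in KO 1 to KO 4, against 451, 3805, 168 and 499.9 CPM in WT 1 to WT 4. WT 2 lay just below KO 2 and above KO 4, and KO 4 was above the other WT tumours, so the groups overlapped. The share of Ctrb1 in the enzyme counts varied little, at 22.9% to 37.2% in KO and 31.9% to 42.6% in WT. Ctrl, a chymotrypsin-like protease, was at 501, 36.2, 170.3 and 9.36 CPM in KO, against 4.48, 96.7, 1.61 and 4.06 CPM in WT. WT 2 was here above KO 2 as well as KO 4. Ctrc, chymotrypsin C, which in humans acts on trypsinogen, fell off more sharply, at 349.7, 4.63, 105 and 2.01 CPM in KO, against 1.25, 24.4, 0.134 and 0.530 CPM in WT. It was singled out after its values were seen, because KO 2 lay 75.5-fold below KO 1, where Ctrb1 differed 3.04-fold between the same tumours.

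Trypsinogen genes lie close together on mouse chromosome 6 and are similar in sequence, so reads may be split between them and the values of single copies are uncertain. Prss2, anionic trypsinogen (chr6:41521776-41525079, plus strand), was at 5939, 1407, 4401 and 307 CPM in KO 1 to KO 4, against 138, 1136, 31.7 and 113 CPM in WT 1 to WT 4. Try5, another trypsinogen of the cluster, was at 1781, 573, 1145 and 85.9 CPM in KO, against 39.4, 413, 7.03 and 23.3 CPM in WT. Both were ordered like the summed enzymes except that KO 2 lay above WT 2. Try4 and Try10 had that order too, with Try4 at 440.2 CPM in KO 1 and 40.0 CPM in WT 2, and Try10 at 72.1 CPM in KO 1 and 11.6 CPM in WT 2.

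A pair of trypsinogens broke the order, and they were singled out after their values were seen. Prss3 (chr6:41373759-41377613, minus strand) was at 24.6, 48.3, 6.31 and 0.140 CPM in KO 1 to KO 4, and in WT it was at 7.40 CPM in WT 2 and had 0 counts in WT 1, WT 3 and WT 4. Prss1 was at 0.792, 8.31, 0.347 and 0.0468 CPM in KO, and at 0.838 CPM in WT 2 with 0 counts in the other 3 WT tumours. Both were highest in KO 2, where the summed trypsinogens were at 2138 CPM, against 8257 CPM in KO 1 and 5771 CPM in KO 3. Gm5771, a predicted gene in the same stretch of chromosome 6 and no member of the set, had the same shape, at 9.50, 28.1, 1.87 and 0.140 CPM in KO, against 0.0521, 2.65, 0 and 0 CPM in WT. For Prss3, 0 counts against KO 2 gave an at least 274-fold higher level in KO 2, with 3 counts per library as the floor.

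Carboxypeptidases trim amino acids from the ends of peptides. Cpa1 (chr6:30639218-30645361, plus strand) was at 4379, 1055, 2884 and 209.5 CPM in KO 1 to KO 4, against 122, 1173, 37.9 and 98.5 CPM in WT 1 to WT 4. Cpb1 was at 4506, 618, 2494 and 117 CPM in KO, against 63.2, 749, 18.7 and 44.4 CPM in WT. Both had the complete order of the tumours given above, with WT 2 between KO 3 and KO 2.

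Elastases cut next to small amino acids, and their members differed in span. Cela2a was at 3525, 336, 1496 and 46.5 CPM in KO 1 to KO 4, against 29.1, 397, 8.96 and 17.8 CPM in WT 1 to WT 4. Cela1 was at 1199, 90.5, 522 and 31.7 CPM in KO, against 39.7, 203, 110.5 and 65.1 CPM in WT. The span within WT was 44.3-fold for Cela2a but 5.13-fold for Cela1, and for Cela1 the lowest of all 8 tumours was KO 4 and WT 3 was the fourth highest. Cela3b followed Cela2a, while Cela3a, a near-identical copy by name, had between 0 and 29 counts per tumour.

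Lipases and their cofactor digest fats. Pnliprp1, a lipase-related protein (chr19:58728887-58744169, plus strand), was at 5484, 1396, 5541 and 335 CPM in KO 1 to KO 4, against 199, 2105, 68.5 and 170.1 CPM in WT 1 to WT 4. Cel, carboxyl ester lipase, was at 5183, 631, 2772 and 222 CPM in KO, against 120.1, 933, 47.8 and 94.4 CPM in WT. In both, WT 2 lay above KO 2 and below KO 1 and KO 3. Clps, the colipase that holds pancreatic lipase on fat droplets, was at 36.3 to 1548 CPM in KO and 6.72 to 262 CPM in WT, and Pnliprp2 at 26.6 to 577 CPM in KO and 5.28 to 123 CPM in WT. Here too KO 4 was the lowest of KO and WT 2 the highest of WT.

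Pnlip, pancreatic triglyceride lipase, lies next to Pnliprp1 (chr19:58670365-58681788, plus strand) and was far steeper than its neighbour. It was singled out after its values were seen. It had 102321, 1695, 30993 and 359 counts in KO 1 to KO 4, against 39, 4582, 1 and 12 counts in WT 1 to WT 4, and so made up 9.30% of the enzyme counts in KO 1 but 0.0086% in WT 3. From the 1 count in WT 3, the ratio of KO 1 to WT 3 was 113073, with a counting interval of 20294 to 4466140. WT 2 lay above KO 2 and KO 4, as for most enzymes. Without Pnlip the summed enzymes still spanned 95.01-fold over all tumours, 21.0-fold within KO and 22.5-fold within WT.

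Amylases split starch, and their mouse genes stand in a cluster of near-identical copies on chromosome 3. Amy2b (chr3:113147656-113156727, minus strand) was at 406, 33.0, 339 and 3.13 CPM in KO 1 to KO 4, against 1.04, 27.2, 0.448 and 2.12 CPM in WT 1 to WT 4. Amy1, the salivary-type amylase that is also transcribed in other tissues, was at 23.8, 5.995, 26.9 and 2.76 CPM in KO, against 2.86, 13.4, 2.37 and 2.06 CPM in WT. KO 1 and KO 3 were the highest for both. The copies Amy2a2, Amy2a3, Amy2a4 and Amy2a5 had 0 counts in all 8 tumours, so the split of reads between copies is uncertain.

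Among KO 1, KO 2, KO 3 and WT 2, Ptf1a, Rbpjl and Nr5a2 were flatter than the summed enzymes, but Bhlha15 was not. Within WT the factors Ptf1a and Rbpjl were as steep as the enzymes. Ptf1a, the factor that defines acinar identity (chr2:19445663-19447501, plus strand), was at 9.11, 14.2, 17.7 and 1.59 CPM in KO 1 to KO 4, against 0.156, 8.98, 0.269 and 1.06 CPM in WT 1 to WT 4. KO 3 and KO 2 were above KO 1, WT 2 was close to KO 1, and the 4 other tumours were low, so the groups overlapped. From 255 counts in KO 3 and 3 in WT 1, the ratio was 113 with a counting interval of 38.8 to 549.

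Rbpjl, the acinar partner of PTF1A (chr2:164403194-164415448, plus strand), was at 21.6, 18.2, 19.4 and 6.97 CPM in KO, against 1.82, 22.9, 0.537 and 0.353 CPM in WT. It was nearly level in KO 1, KO 2, KO 3 and WT 2, and KO 4 lay 3.83-fold above WT 1. Its fold between the highest and lowest tumour was 3.10 within KO and 64.8 within WT, the most unequal pair of the 4 factors.

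Nr5a2, a nuclear receptor of exocrine genes (chr1:136843584-136960448, minus strand), was at 20.8, 20.2, 21.99 and 7.48 CPM in KO, against 5.36, 22.5, 7.03 and 9.01 CPM in WT. Bhlha15, which is needed for granule organisation in mouse acinar cells (chr5:144190286-144194441, plus strand), was at 20.4, 7.63, 39.8 and 4.26 CPM in KO, against 8.07, 14.3, 5.96 and 3.53 CPM in WT. Nr5a2 was level among its 4 highest tumours, which were again KO 1 to KO 3 and WT 2. For Bhlha15, WT 1 and not KO 2 was among the 4 highest, and KO 2 lay below WT 1 and WT 2.

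Set against each other by their sums, enzymes and factors separated most in the upper tumours. The 4 factors summed to 71.9, 60.2, 98.9 and 20.3 CPM in KO 1 to KO 4, against 15.4, 68.7, 13.8 and 14.0 CPM in WT 1 to WT 4, a 7.17-fold span where that of the enzymes was 105-fold. The ratio of the enzyme sum to the factor sum, read across tumours only, was 757, 184, 360 and 117 in KO 1 to KO 4, against 82.1, 174, 37.7 and 84.1 in WT 1 to WT 4. It varied within each group, and KO 2 and WT 2 lay close together in the ratio and in both sums. In WT 1, WT 3 and WT 4 most of the factor sum came from Nr5a2 and Bhlha15. Single factors differed. Per Ptf1a count, enzyme counts were highest in WT 1 (8101, from 3 Ptf1a counts), against 5977 in KO 1. Per Rbpjl count they were highest in WT 4 (3321, from 6 Rbpjl counts), against 2517 in KO 1. Per Bhlha15 or Nr5a2 count they were highest in KO 1.

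KO 1 was the highest tumour for 17 of the 20 tested enzymes and for 0 of the 4 factors, and WT 3 was the lowest for 17 of the 20 and for 0 of the 4. The median KO 1 over KO 2 ratio was 5.75 for the enzymes that allowed one and 1.11 for the factors. The median WT 2 over WT 3 ratio was 33.4 for the enzymes and 18.3 for the factors. That factor median describes no single factor, since Rbpjl was at 42.6 and Ptf1a at 33.4 while Nr5a2 and Bhlha15 were far flatter. By their sums, the gap between the classes was nearly the same in both groups. The enzymes spanned 23.0-fold within KO and 22.9-fold within WT, and the factors 4.87-fold within KO and 4.98-fold within WT. Per length, the factors averaged 2.05 to 2.59 FPKM over the 8 tumours, and the most abundant enzymes, Ctrb1 and Prss2, 2422 and 1091 FPKM. The FPKM of Nr5a2 came from another transcript than its counts. For low counts such as those of the factors, counting error is a larger part of the spread, and Rbpjl rested on 6 counts in WT 4 and Ptf1a on 3 in WT 1.

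**Figure D2:**
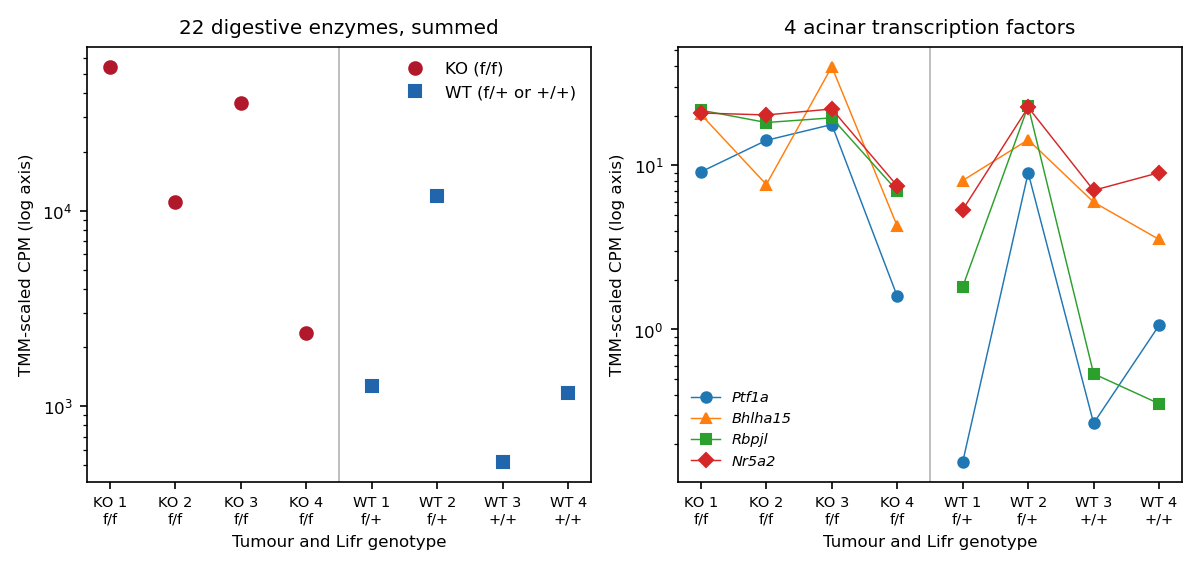
TMM-scaled CPM on log axes, for the 22 enzymes summed (left) and the 4 transcription factors (right), by tumour with KO 1 to KO 4 to the left of WT 1 to WT 4. Each point is 1 tumour, and lines only join values of a gene within a group; the enzymes are highest in KO 1 (54429 CPM) and lowest in WT 3 (519.6 CPM), and Rbpjl and Nr5a2 are nearly level in KO 1 to KO 3 and WT 2 while Ptf1a and Bhlha15 vary among them.

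Other secreted and granule proteins mostly ran with the enzymes. Rnase1, pancreatic ribonuclease, was at 1495, 165, 825 and 21.99 CPM in KO 1 to KO 4, against 12.9, 247, 3.49 and 5.77 CPM in WT 1 to WT 4. Gp2, the main membrane glycoprotein of zymogen granules, was at 1449, 239, 1147 and 109.7 CPM in KO, against 259, 591, 222 and 253 CPM in WT. Its span within WT was 2.66-fold, and KO 4 was the lowest of all 8 tumours. Spink1, which codes for a trypsin inhibitor and had the smallest p of the set, was at 88.0, 56.4, 63.5 and 2.95 CPM in KO, against 1.77, 14.7, 0.717 and 1.001 CPM in WT. KO 1 to KO 3 lay above all WT tumours, and KO 4 below WT 2. With Sycn, Zg16, Klk1, Cuzd1 and Serpini2 it made up the other 6, which spanned between 22.5-fold and 33.3-fold within KO and between 19.5-fold and 57.6-fold within WT.

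Proteins of the endoplasmic reticulum, metabolism and membranes were the least uniform class. Pdia2, a protein disulphide isomerase of the pancreas, was at 172, 23.0, 111 and 6.31 CPM in KO 1 to KO 4, against 4.01, 35.7, 1.12 and 2.53 CPM in WT 1 to WT 4, in the complete order of the tumours. Gatm, which makes the creatine precursor guanidinoacetate, was at 315, 323, 295 and 137 CPM in KO, against 141, 124, 162 and 238 CPM in WT. Gatm was nearly level in KO 1 to KO 3, KO 4 lay within the range of WT, and WT 2 was the lowest of all tumours. Its span over the 8 tumours was 2.59-fold, the narrowest of the 31 genes for which more than 3 counts in every tumour allowed such a ratio. Erp27, Tmed6 and Aqp12 had WT 2 as the third highest tumour, below KO 1 and KO 3, and the water channel gene Aqp8 had between 1 and 45 counts per tumour.

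**Figure D3:**
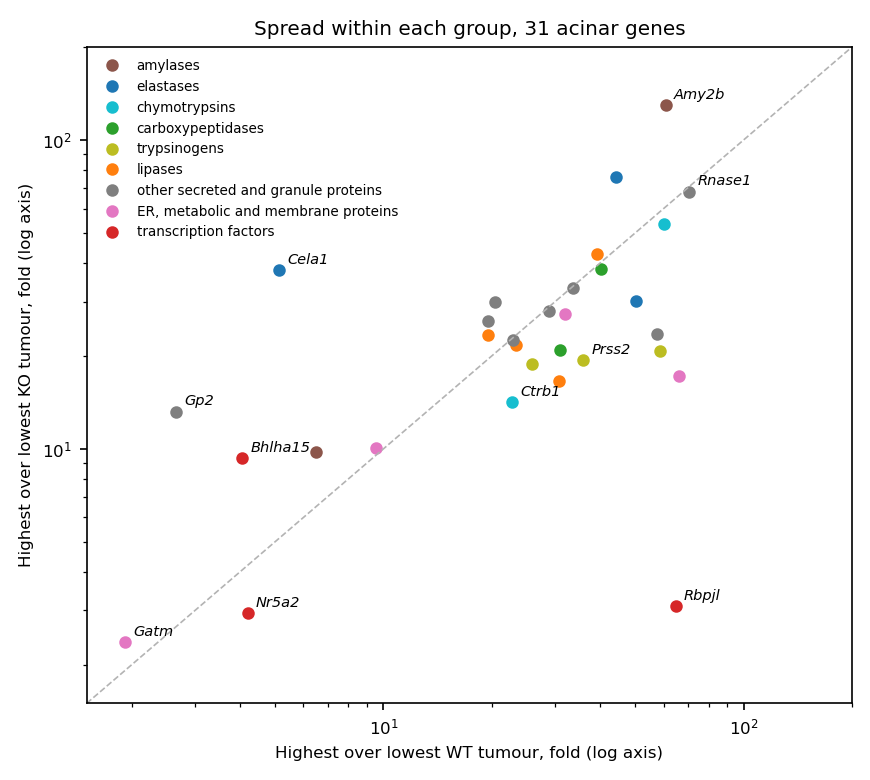
Fold between the highest and lowest tumour within KO (vertical, log axis) against that within WT (horizontal, log axis) for the 31 acinar genes with more than 3 counts in every tumour; points are genes coloured by role and the dashed line marks equal spans. Most lie near the line with spans of 14.2-fold to 129.5-fold within KO, while Cela1 and Gp2 spanned more within KO and Rbpjl more within WT.

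Genes that were steep within one group tended to be steep within the other. Across the 33 genes with more than 3 counts in the tumours concerned, the log2 ratio of KO 1 to KO 4 and that of WT 2 to WT 3 had a Pearson r of 0.589 and a Spearman rho of 0.543. This is a description across genes measured in the same 4 libraries, and genes are not independent replicates.

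Between the labels, none of the acinar genes passed the test. Of the 37 tested genes 0 were called by edgeR's quasi-likelihood test at a Benjamini-Hochberg adjusted p under 0.05, where 21.8% of all genes were called, 11.1% higher and 10.8% lower. At an unadjusted p under 0.05 there were 13 of 37, against 36% of all genes, and DESeq2 called 5 (Amy2b, Prss2, Spink1, Sycn and Try10), all higher in KO, where it called 14.3% of all genes higher, while limma on log2(FPKM + 1) called 0. The edgeR adjusted p ran from 0.0603 (Spink1) to 0.414 (Rbpjl). For 0 of the 37 did all KO tumours lie above all WT tumours, against 13.1% of all genes, and 0 lay below, against 12.3%. WT 2 was above KO 4 for 36 of the 37, against 50.6% of all genes.

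The fitted differences were nevertheless all on one side. All 37 log2 fold changes (KO minus WT) were above 0, against 51.4% of all genes, with a median of 2.74 against 0.011, but their median standard error was 1.22 against 0.152. These 37 share the same gradient over the same 8 tumours and are not 37 separate observations. The summed enzymes averaged 25881 ± 23677 CPM in KO and 3720.3 ± 5479 CPM in WT (SD, n = 4 each). The difference was smaller than the SD within KO. The p-values set the difference between the labels against the spread between tumours as sampled here, from 1 library each.

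By role, the median log2 fold change was 3.03 for the enzymes, 2.39 for the other secreted proteins, 1.98 for the proteins of the endoplasmic reticulum, metabolism and membranes, and 1.26 for the factors. Amy2b averaged 195 ± 207 CPM in KO and 7.71 ± 13.0 CPM in WT (SD, n = 4 each), and its log2 fold change was 4.65 ± 1.63 (SE, edgeR adjusted p = 0.0746). Ctrb1 averaged 6711 ± 5199 CPM in KO and 1231 ± 1722 CPM in WT, a log2 fold change of 2.45 ± 1.08 (edgeR adjusted p = 0.141). Among the factors, Ptf1a averaged 10.6 ± 6.99 CPM in KO and 2.62 ± 4.26 CPM in WT, with a log2 fold change of 2.002 ± 1.14 (edgeR adjusted p = 0.243). For Bhlha15, Rbpjl and Nr5a2 the log2 fold changes were 1.17 ± 0.68, 1.36 ± 1.10 and 0.68 ± 0.49. Gatm had the smallest error, with 0.68 ± 0.29 (edgeR adjusted p = 0.132).

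**Figure D4:**
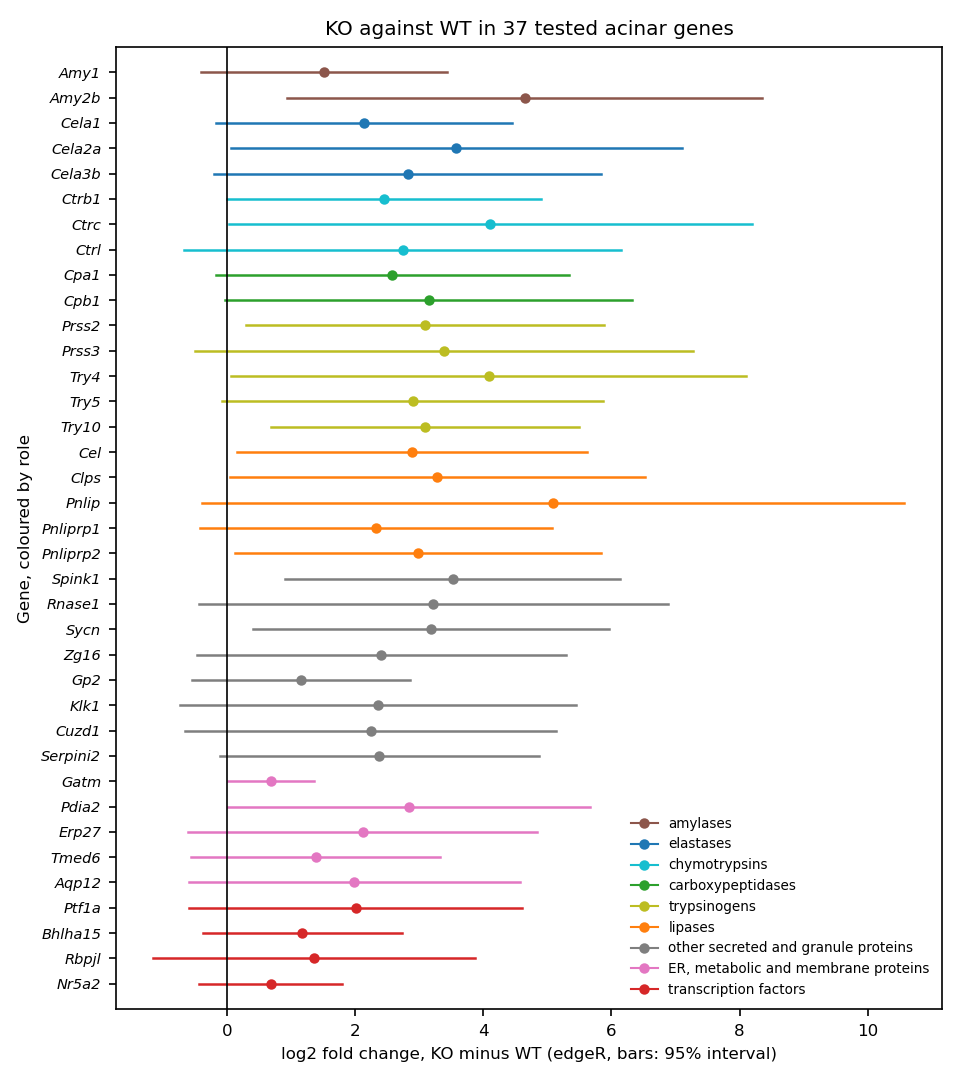
Log2 fold changes of KO minus WT (points) with 95% intervals from the edgeR fit (bars) for the 37 tested acinar genes, grouped and coloured by role; the vertical line marks 0. All points are above 0, from 0.68 to 5.09, and most intervals reach 0 or below.

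The number of calls turned on a few libraries. Without WT 2, 29 of 37 genes were called higher in KO by edgeR, against 8.91% of all genes in that fit. Without KO 4, 4 of 39 were called higher (Amy2b, Gatm, Spink1 and Try10), near the 9.69% of all genes. With KO 1 and WT 2 both left out, 20 of 36 were called higher, against 6.33% of all genes. Against the +/+ tumours alone the median log2 fold change was 5.17 with 1 of 40 genes called higher (Rbpjl), against 3.41% of all genes, and against the f/+ tumours alone it was 1.87 with 0 of 40 called, against 6.75% of all genes called higher, and 1 at an unadjusted p under 0.05. Both comparisons share the KO tumours, and WT 2, the high tumour, is an f/+ tumour. With libraries scaled to the 25 epithelial markers, all 37 were called higher, in a fit that called 73.2% of all genes higher. In the test after TMM scaling, 16 of these 25 epithelial markers and 13 of 16 ductal markers fell in KO, beside the 10.8% of all genes that did.

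Lists of other genes of the acinar cell, chosen like the members with earlier results known, were read from the same test. Of 10 other acinar products that could be tested, 1 was called higher and 0 lower, beside 11.1% and 10.8% of all genes. Their median log2 fold change was 2.47. The 1 was 1810009J06Rik, at 43.7, 23.0, 21.4 and 5.99 CPM in KO, against 1.87, 6.003, 0.314 and 1.24 CPM in WT (log2 fold change 3.31 ± 0.83, edgeR adjusted p = 0.0242). WT 2 was level with KO 4, so the groups overlapped. Its call was lost without KO 1, KO 2, WT 1 or WT 4 (edgeR adjusted p = 0.0642, 0.0562, 0.0633 and 0.0524) and with the f/+ controls alone (0.0953). Cckar, the receptor through which cholecystokinin triggers enzyme release in the mouse, was singled out after its values were seen, at 70.3, 91.6, 118 and 22.2 CPM in KO, against 4.37, 67.1, 1.21 and 6.30 CPM in WT. Its order within KO (KO 3, KO 2, KO 1, KO 4) was that of Ptf1a, and it was not called (edgeR adjusted p = 0.231).

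The machinery of granule secretion did not follow the gradient. Its 19 genes summed to 1341 to 1474 CPM in KO and 1483 to 1679 CPM in WT, with a median log2 fold change of 0.012. The sums did not overlap, with KO below WT, but this direction rested on Itpr3, the most abundant of the 19 genes. Without Itpr3 the direction turned round, and all KO sums lay above all WT sums. Of the 19 genes, 4 rose, 2 fell and 13 did not pass, beside 11.1% of all genes that rose and 10.8% that fell. Snap23, a SNARE protein of granule fusion, was at 129, 149, 109.6 and 119 CPM in KO, against 76.9, 71.6, 64.3 and 88.0 CPM in WT (log2 fold change 0.75 ± 0.12, edgeR adjusted p = 0.00616). Itpr3, a calcium release channel of acinar cells, was at 371, 262, 311 and 388 CPM in KO, against 642, 587, 639 and 494 CPM in WT (log2 fold change −0.83 ± 0.15, edgeR adjusted p = 0.00787). Stx4a, a syntaxin, rose by 0.37 ± 0.07 (edgeR adjusted p = 0.0109). The groups did not overlap for these 3, where all KO tumours lay above all WT tumours for 13.1% of all genes and below for 12.3%. However, Itpr3 was at −0.0068 with epithelial scaling. The call of Stx4a was lost with library totals alone (edgeR adjusted p = 0.115). It was also lost with limma on FPKM (adjusted p = 0.121 and 0.124 with a pseudocount of 1 and 0.1). Against the +/+ controls alone none of the 3 was called (edgeR adjusted p = 0.0518 for Snap23, 0.0568 for Itpr3 and 0.0795 for Stx4a).

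Among 18 co-regulators of acinar fate, 1 rose, 6 fell and 11 did not pass, beside 11.1% of all genes that rose and 10.8% that fell. Rbpj, the widely expressed relative of Rbpjl that also serves Notch signalling, was at 139, 109, 115 and 88.3 CPM in KO, against 48.5, 45.6, 29.6 and 53.0 CPM in WT (log2 fold change 1.35 ± 0.20, edgeR adjusted p = 0.00464). All KO tumours were above all WT tumours, as for 13.1% of all genes, and WT 2, which was high in Rbpjl, was not high in Rbpj. Hes1, a Notch target, was at 51.6, 33.2, 45.1 and 36.4 CPM in KO, against 75.3, 70.5, 72.5 and 64.6 CPM in WT (log2 fold change −0.77 ± 0.14, edgeR adjusted p = 0.00787). With epithelial scaling Hes1 was at 0.064, and it was not called against the +/+ controls alone (edgeR adjusted p = 0.0587). In the same tumours 15 of 16 macrophage markers rose and 13 of 16 ductal markers fell, and their part in these differences was not tested. Islet markers, another possible content of the sort, summed to 511 to 681 CPM in KO and 264 to 616 CPM in WT, with 0 of 15 called by edgeR, and WT 2, the WT tumour highest in acinar genes, was the lowest in them.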

How the data were processed

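Per the file headers, the authors deposited whole-number counts of tags per gene. HOMER counted them over RefSeq exons of mm10 on the plus strand, keeping 1 transcript for each gene, and did not normalize them. They also deposited FPKM values from the same program, per the file headers, with the same kept transcript for 36 of the 40 genes (not for Nr5a2, Amy1, Amy2b and Klk1). Tools listed in the submitters' processing notes are STAR 2.4.0k, FastQC 0.11.2, edgeR 3.6.8 and HOMER, with the mm10 build. Whether libraries were stranded is not given in the sources used here, so antisense partners may not be separated, and near-identical copies can share reads.

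Groups come from the sample titles and Lifr alleles from the genotype labels. Replicate numbers follow listing order and pair no tumours. Counts were tested with edgeR 4.0.16 in R 4.3.3 (glmQLFit and glmQLFTest, TMM, filterByExpr with a minimum count of 10 and total of 15), with Benjamini-Hochberg adjustment over all 14728 genes and a threshold of 0.05. DESeq2 1.42.0 and limma 3.58.1 (trend, on log2(FPKM + 1) and log2(FPKM + 0.1)) were alternatives, with other scalings, filters, controls and omitted tumours. TMM factors were 0.890 to 0.965 in KO and 1.05 to 1.10 in WT. The test was first tested on simulated data. Depth limits mainly genes with few counts, for which a floor of 3 counts per library or an exact Poisson interval on the lowest count was used.

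The 40 members, the other lists and the naming rule were chosen with earlier results of these data known. Values per tumour are given for the 4 factors and for the 2 members of each other role with the highest mean CPM, for up to 3 called genes (smallest p) of each other list, and for Lifr and Epcam. A few items that met this rule or stand in the labels are not reported here. Promoter sequences are from RefSeq (GRCm38.p6).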

Additional observations from a re-analysis of the deposited data

Results flagged for a closer look

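Within a group of 4 tumours, a gene was marked where the highest or lowest tumour lay apart from the next by a share of the group's range above Dixon's 95% critical value for 4 samples, on the log2(CPM + 0.5) scale. Of 82 such groups 10 passed, and chance marks about 1 in 20 groups. All 10 concerned the same pair of tumours. In WT the tumour apart was WT 2, always the highest, with the gap at 0.839 of the range for Amy1, 0.883 for Pnliprp2 and 0.844 for Gp2, and at 1.0 for Cela3a, Prss1 and Prss3, which had 0 counts in the 3 other WT tumours. In KO it was KO 4, always the lowest, with the gap at 0.864 for Spink1, 0.895 for Gatm, 0.845 for Rbpjl and 0.921 for Nr5a2. For most enzymes no tumour was marked, since KO 1 to KO 4 were spread out rather than split. For Cela3a, Prss1 and Prss3 the gap was fixed at 1.0 by the 3 tied zeros, and the rate of 1 in 20 does not cover such ties. Genes of the same tumours are not independent, so these marks are not 10 separate findings.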

How the results depend on the processing

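All 37 tested genes had a log2 fold change above 0 in each of the 19 alternatives in which they were tested, and their median was 1.87 to 5.17 over the alternatives. Calls among them were 37 with scaling to the epithelial list, 5 with DESeq2, 1 with the +/+ controls alone, 20 without KO 1 and WT 2 together, and 0 to 29 with any 1 tumour left out (29 without WT 2, 4 without KO 4). They were 0 in the other alternatives. Calls over all genes numbered 3216, and 10890 with epithelial scaling, 1926 with f/+ controls alone, 1106 with +/+ controls alone, 1892 without KO 1 and WT 2 together, and 1755 to 3241 with 1 tumour left out (1755 without KO 2, 2077 without WT 3). Library totals alone gave 22.5% of calls higher in KO, against 50.7% with TMM, and moved the median of all genes to −0.17. Epithelial scaling moved it to 0.85. The 105-fold span of the enzymes was 183 with epithelial scaling, 68.6 without KO 1 and WT 2, and 46.4 to 105 with 1 tumour left out (68.6 without KO 1, 46.4 without WT 3). The cause of these shifts was not tested. No paired analysis was possible because the replicate numbers follow listing order. Depth limits Cela3a, Prss1, Prss3, Aqp8 and the factors.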

Other observations

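Genes that stand next to the acinar programme were read after the results above were known. Tcf3 and Tcf12 code for the widely expressed partners of PTF1A in the PTF1 complex. Tcf3 was at 89.7, 79.8, 95.1 and 102 CPM in KO 1 to KO 4, against 131, 111, 136 and 109 CPM in WT 1 to WT 4, with a log2 fold change of −0.41 ± 0.10 (edgeR adjusted p = 0.0257). The groups did not overlap, where all KO tumours lay below all WT tumours for 12.3% of all genes. Among the WT tumours, WT 2 lay below WT 1 and WT 3. Its call was lost without KO 1, KO 2, KO 3, WT 1 or WT 3, with an edgeR adjusted p between 0.0515 and 0.0719. It was also lost without KO 1 and WT 2 together (0.0695), with the f/+ controls alone (0.0825) and with the +/+ controls alone (0.0956). Tcf12 was at 113, 105, 114 and 134 CPM in KO, against 156, 127, 151 and 115 CPM in WT (edgeR adjusted p = 0.178), and the groups overlapped. For neither partner were KO 1, KO 2, KO 3 and WT 2 the 4 highest tumours, as they were for Ptf1a and Rbpjl.

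A further acinar product and a secretory regulator were read in the same way. Pla2g1b, the pancreatic phospholipase, was at 82.3, 2.79, 38.9 and 1.68 CPM in KO, against 1.09, 6.93, 0.493 and 0.353 CPM in WT, with KO 2 below WT 2. Xbp1, a regulator of the secretory endoplasmic reticulum in many cell types, was at 658, 620.2, 724 and 412 CPM in KO, against 441, 478, 417 and 477 CPM in WT. KO 4 was the lowest of all 8 tumours for Xbp1 and the lowest of the KO tumours for Pla2g1b, and neither gene was called (edgeR adjusted p = 0.0810 for Pla2g1b and 0.111 for Xbp1).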
